A study of Saccharomyces cerevisiae with 12 samples.

Results

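Transcript levels of budding yeast late in nitrogen starvation were compared with those of cells before starvation, on the 3 arrays labelled as nitrogen-starved for 2, 4 and 8 h, of 12 arrays in the series. The cells were FY4, a prototrophic MATa derivative of S288C, which can make all its amino acids and nucleotides from ammonium and glucose. They grew on filters over minimal medium (YNB) with glucose and ammonium until the filters were moved to YNB/agarose plates that still held glucose but had no ammonium. Both channels of every array came from this 1 strain in filter culture. Starved RNA carried Cy5 (red) and pre-starvation RNA carried Cy3 (green). The 3 late carbon starvation arrays (2, 4 and 8 h on plates with ammonium and without glucose) were used for comparison, and the remaining 6 arrays, taken within the first hour, were not used. The labels call the material total RNA, whereas the methods of the study state that the poly(A)+ fraction was purified before labelling.

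Yeast takes up ammonium and glutamine first. While these are plentiful, the genes for using poorer sources (allantoin, urea, proline, arginine, GABA) are kept low by nitrogen catabolite repression, in which the GATA activators Gln3 and Gat1 are held out of the nucleus and the GATA repressors Dal80 and Gzf3 compete for the same sites. When nitrogen runs out, TORC1 signalling drops, ribosome production stops, autophagy and vacuolar proteases recycle the cell's own protein, and the cells store glycogen and trehalose. These are textbook accounts and not results of these arrays.

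A value below is a log2 ratio of starved over pre-starvation signal on 1 array, so that 1 is a 2-fold rise, and a mean ± SE is over the 3 arrays (n = 3), with the SE from limma's moderated spread. The ratio gives a transcript's share of the labelled RNA, in which fewer cells with a transcript and less of it per cell cannot be told apart. The 3 arrays are time points and not replicates, so their spread includes the course from 2 to 8 h. All 3 were set against pre-starvation RNA, whose own spread is not in the ratio, and no dyes were swapped. Each array held 10263 non-control spots for 6256 genes. Of the spots, 84.8 to 87.8% were well above background in green and 90.7 to 93.4% in red, 0.0195 to 0.107% were saturated, and duplicate spots of a gene differed with an SD of 0.15 to 0.19. As the methods of the study state, each array was scaled to equal red and green totals. This moved the ratios of the 2, 4 and 8 h arrays by 0.42, 0.24 and -0.14, and left their medians over all genes at 0.60, 0.31 and -0.15. Changes are read below against the median of all genes, which was 0.25 for the mean of the 3 arrays. The 6 sources of ratios set side by side were equal totals, no further scaling, median centring, normexp correction with equal totals or with loess, and the deposited series table, and a call is said to hold on all 6 where each gave it. The sources are not independent. Equal totals and median centring only shift each array's unscaled ratios. The deposited table gave nearly the count of no further scaling (1823 and 1821 raised). Ratios of near-identical genes, such as the paired ribosomal protein genes, HXT6 and HXT7, or the TDH genes, can share signal. Some genes named below had a channel not well above background at some spot of the 3 arrays, so their ratios are less certain. Besides those flagged where they appear, these were AGP2, ATG1, CYC7, FBP1, HSP30, MLS1, NDE2, OPT2, PHM8, PHO89, POT1, STE3, TKL2 and VAR1.

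Late in nitrogen starvation, 1768 of 5693 genes tested (31.1%) were raised and 1090 (19.1%) were lowered, at a Benjamini-Hochberg adjusted p under 0.05 in limma. Of the 2858 genes called, 2854 moved in 1 direction on all 3 arrays, beside 4023 of all 5693 tested. The test itself favours such genes. The raised genes made up 61.9% of the calls, but 49.1% with each array centred on its median, so the split between rises and falls depends on the scaling. On all 6 sources of ratios, 1291 genes were raised and 1003 lowered. Rises of at least 2-fold numbered 1353 and falls 911, and at least 8-fold 194 and 203. Without the 4 h array, 958 genes were raised and 778 lowered. The counts were 1569 and 1340 without the 2 h array, and 2348 and 1005 without the 8 h array. With median centring they were 1648 and 1709, and over the 6 sources 1542 to 2017 and 1090 to 1709. Group counts below under these settings are to be read beside these.

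HSP26, a small heat shock chaperone, led the 12 largest rises among genes bright in both channels. It stood at 5.81, 6.47 and 7.59 at 2, 4 and 8 h, a mean of 6.62 ± 0.35 or 98.6-fold (adjusted p = 3.1e-05). The ratio was higher at each later time. HXT5, a hexose transporter of slowly growing cells, stood at 5.99, 5.47 and 6.69 (mean 6.05 ± 0.30, adjusted p = 3.1e-05). CTT1, the cytosolic catalase, stood at 5.73, 5.62 and 5.95 (mean 5.76 ± 0.24, adjusted p = 3.1e-05), and SOL4, a 6-phosphogluconolactonase, at 6.77, 5.58 and 5.71 (mean 6.02 ± 0.30, adjusted p = 3.1e-05). CTT1 varied little between the 3 arrays, while SOL4 was highest at 2 h. PDC6, a minor pyruvate decarboxylase, was at 5.53, 5.05 and 5.90 (mean 5.49 ± 0.27). The other 7 of the 12 largest rises were PHM7, FMP16, BDH2, TMA10, UIP4, SHH4 and YBR116C, with means of 5.41 to 6.60. YBR116C, which the current gene table does not hold, ran from 3.96 at 2 h to 6.89 at 8 h, the widest spread of the 12.

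Of the 12 largest falls, 6 were in the ribosome assembly list and 1, RPA49, was an RNA polymerase I gene. RPA49, a subunit of RNA polymerase I, stood at -6.25, -4.47 and -4.48 (mean -5.07 ± 0.38, adjusted p = 9.7e-05). NOG1, a GTPase of large subunit assembly, stood at -6.35, -4.17 and -3.70 (mean -4.74 ± 0.48, adjusted p = 2.2e-04). Both were lowest at 2 h. The RNA helicases DBP3 and DRS1 had means of -4.55 ± 0.42 and -4.29 ± 0.46, and ARX1, NOP13, NSA2, BRX1 and MRT4, which are known from the nucleolus or from large subunit assembly, had means of -4.40 to -4.26. The nucleolar protein gene SRP40 was at -4.59, -3.81 and -4.63. URA7, the major CTP synthase, was at -6.11, -4.17 and -4.40 (mean -4.89 ± 0.39), and LEU9, an isopropylmalate synthase of leucine synthesis, at -4.86, -3.84 and -4.34 (mean -4.35 ± 0.28). All 24 of these rises and falls held on all 6 sources of ratios and without any 1 of the 3 arrays.

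**Figure D1:**
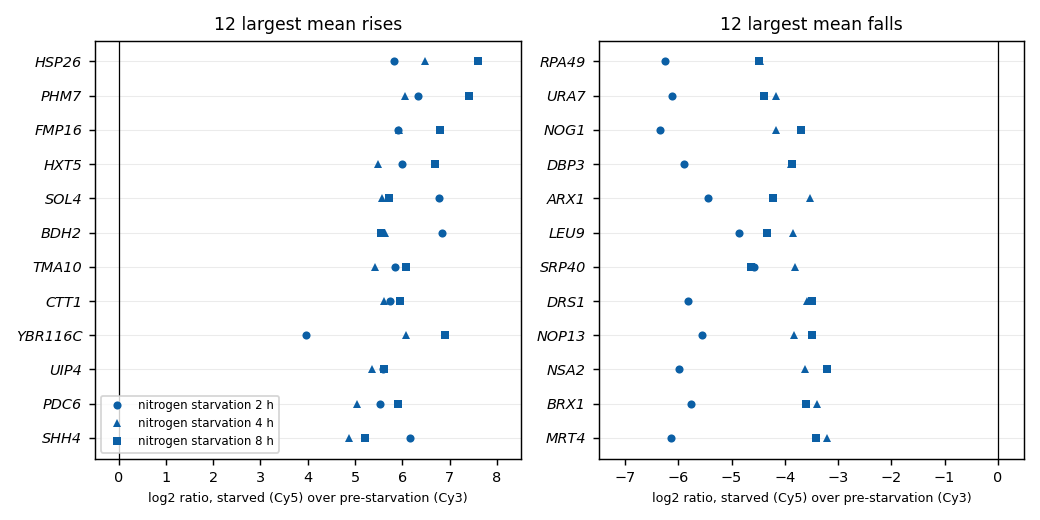
Log2 ratio of starved over pre-starvation signal (x axis) of the genes with the 12 largest mean rises (left) and falls (right), 1 point per array at 2 h (circle), 4 h (triangle) and 8 h (square). No point of a rise or a fall lies near 0, and the circle (2 h) is the lowest point for every fall except SRP40.

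Genes for using allantoin and urea were raised in 9 of the 10 cases tested, against a background of 31.1% of all genes, with a median mean change of 1.17 beside 0.25 for all genes. DUR3, the urea transporter, stood at 5.38, 5.09 and 4.37 (mean 4.95 ± 0.28, 30.9-fold, adjusted p = 3.3e-05). DAL4, the allantoin permease, stood at 5.37, 4.81 and 3.74 (mean 4.64 ± 0.34, 24.9-fold, adjusted p = 7.8e-05). Both ran downward from 2 to 8 h. On the late carbon arrays DAL4 was at -3.39, -2.69 and -3.62 and DUR3 at 0.09, -0.38 and -0.40. The difference between the starvations was 7.87 ± 0.45 for DAL4 (adjusted p = 4.9e-06) and 5.18 ± 0.36 for DUR3 (adjusted p = 1.3e-05). DUR12, the urea amidolyase that turns urea into ammonia, was at 2.23, 2.13 and 2.30 (mean 2.22 ± 0.24, adjusted p = 2.5e-04), and thus even across the 3 arrays. The allantoinase gene DAL1 (1.64, 1.21 and 0.17), the malate synthase gene DAL7 (2.03, 1.52 and 0.48) and the pathway activator DAL82 (2.15, 1.53 and 0.76) had the highest value at 2 h and the lowest at 8 h. Their means were 1.0 ± 0.32, 1.34 ± 0.33 and 1.48 ± 0.31 (adjusted p = 0.034, 0.011 and 0.0057). The 4 members raised without any 1 of the 3 arrays were DUR3, DAL4, DUR12 and DAL82, and DAL1, DAL7, DAL2, DCG1 and DAL81 were no longer called without the 4 h array, nor DAL1, DCG1 and DAL81 without the 2 h array. The only member not called was DAL3, the ureidoglycolate lyase, at 0.28, -0.07 and -0.69 (adjusted p = 0.66). It too was higher than on the late carbon arrays, where it was at -2.12, -2.46 and -2.45, by 2.18 ± 0.35 (adjusted p = 0.0016).

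For proline, arginine and GABA breakdown 6 of 8 genes were raised and none lowered, beside 31.1 and 19.1% of all genes, with a median of 3.11. CAR1, the arginase that splits arginine into ornithine and urea, stood at 6.36, 4.47 and 2.84 (mean 4.56 ± 0.57, adjusted p = 5.1e-04), and CAR2, the ornithine transaminase, at 6.33, 4.61 and 3.35 (mean 4.76 ± 0.50, adjusted p = 2.5e-04). Both stayed raised but were lower at each later time, and the ratio of CAR1 dropped by 3.53 from 2 to 8 h, the largest drop among genes with both channels well above background. PUT1, the proline oxidase, stood at 4.80, 4.11 and 3.24 (mean 4.05 ± 0.33, adjusted p = 1.1e-04), with PUT2, the next enzyme, at 2.02, 1.68 and 1.11 (mean 1.61 ± 0.27). UGA1 and UGA2, which degrade GABA, had means of 2.63 ± 0.26 and 3.59 ± 0.24. All 6 of these enzyme genes were raised on all 6 sources and without any 1 array. The 2 activator genes were not called, with PUT3 at -0.09, -0.36 and -0.88 and UGA3 at 0.37, 0.48 and -0.05, although PUT3 was lowered on 4 other sources. In late carbon starvation PUT1 was at 1.21, -0.83 and -0.01 and CAR1 at 1.61, 0.66 and -0.08, lower than in nitrogen starvation by 3.93 ± 0.54 and 3.83 ± 0.75 (adjusted p = 6.7e-04 and 0.0051).

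Around glutamate, 4 of 6 genes were raised and 2 lowered, beside 31.1 and 19.1% of all genes. GDH1, which fixes ammonium into glutamate, was at -2.33, -2.20 and -2.96 (mean -2.50 ± 0.26, adjusted p = 2.5e-04) and GLN1, the glutamine synthetase, at -0.90, -1.01 and -1.37 (mean -1.09 ± 0.25, adjusted p = 0.0076). Both ammonium-fixing genes were thus low on all 3 arrays, although the call of GLN1 was lost without the 4 h array. GDH2, which releases ammonium from glutamate, was at 2.30, 2.09 and 2.26 (mean 2.22 ± 0.24, adjusted p = 2.6e-04), and GAD1, the glutamate decarboxylase, at 4.36, 4.43 and 4.51 (mean 4.43 ± 0.23, adjusted p = 3.1e-05). GDH1 was lower still in late carbon starvation, at -4.62, -4.93 and -5.31 (difference 2.45 ± 0.35, adjusted p = 7.7e-04). GDH3, the second ammonium-fixing dehydrogenase, was raised (1.59, 0.96 and 1.65, mean 1.40 ± 0.26) but by less than in carbon starvation, where its mean was 5.03 (difference -3.63 ± 0.33, adjusted p = 5.4e-05). GLT1, the glutamate synthase, rose in the same range, at 0.88, 1.25 and 2.09 (mean 1.41 ± 0.30, adjusted p = 0.0058), though on 4 of the 6 sources only.

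Of the 23 amino acid and peptide permease genes tested, 10 were raised and 7 lowered, or 43.5 and 30.4% beside 31.1 and 19.1% of all genes, with 4 lowered without the 4 h or the 8 h array. Among those raised were general or nitrogen-regulated carriers: GAP1, the general amino acid permease, at 2.09, 1.89 and 2.60 (mean 2.19 ± 0.26, adjusted p = 3.9e-04), PUT4, for proline, at 4.12, 3.18 and 3.11 (mean 3.47 ± 0.29, adjusted p = 1.2e-04), UGA4, for GABA, at 3.35, 2.24 and 2.47 (mean 2.69 ± 0.29), and DAL5, for allantoate and dipeptides, at 3.28, 2.20 and 1.48 (mean 2.32 ± 0.36, adjusted p = 0.0013). DIP5, for dicarboxylic amino acids, was at 3.50, 2.23 and 1.36 (mean 2.36 ± 0.40), AGP2 at 3.33, 2.91 and 2.42, and the oligopeptide transporter genes OPT1 and OPT2 had means of 1.94 ± 0.35 and 3.97 ± 0.32. Among those lowered were GNP1, for glutamine and other amino acids, at -2.86, -2.88 and -3.23 (mean -2.99 ± 0.24, adjusted p = 1.1e-04), TAT2, for tryptophan and tyrosine, at -2.15, -2.43 and -3.28 (mean -2.62 ± 0.29, adjusted p = 3.1e-04), HIP1, for histidine, at -1.76, -1.63 and -2.07 (mean -1.82 ± 0.24), and MUP1, for methionine, at -1.30, -1.21 and -1.74 (mean -1.42 ± 0.25). GAP1 was at -1.68, -2.0 and -2.25 in late carbon starvation and DAL5 at -3.68, -4.11 and -3.27. The differences were 4.17 ± 0.34 and 6.01 ± 0.46 (adjusted p = 2.6e-05 and 1.9e-05). BAP2 and BAP3, for branched amino acids, were not tested, since they were well above background on too few arrays.

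The 3 ammonium permease genes had means between -0.44 and 0.67. MEP2, the high affinity permease that also acts as a sensor, was at 0.85, 0.71 and 0.46 (mean 0.67 ± 0.24, adjusted p = 0.049), a rise called on 3 of the 6 sources and lost without the 2 h or the 4 h array. MEP1 was at -0.27, 0.61 and 1.09 and MEP3 at -0.01, -0.53 and -0.80, neither of them called with equal totals, though MEP3 was lowered on 4 other sources. Against late carbon starvation, in which MEP2 was at -3.24, -4.55 and -3.94, MEP2 was higher by 4.58 ± 0.38 (adjusted p = 2.8e-05) and MEP3 by 2.21 ± 0.34 (adjusted p = 0.0012). Of the 5 GATA regulator genes, DAL80, the repressor, was raised at 2.96, 2.55 and 2.22 (mean 2.57 ± 0.26, adjusted p = 2.2e-04). URE2, which holds Gln3 in the cytosol, was lowered at -0.98, -0.62 and -0.91 (mean -0.84 ± 0.24, adjusted p = 0.022), though not without the 4 h array. The activator genes were not called, with GLN3 at -0.47, -0.50 and -0.98 and GAT1 at 0.13, 0.19 and 0.64, nor was the repressor gene GZF3 at 0.28, 0.02 and -0.19. GLN3 was lowered on 4 other sources. DAL80 was at -1.80, -2.31 and -2.12 in late carbon starvation, lower by 4.65 ± 0.34 (adjusted p = 1.4e-05).

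**Figure D2:**
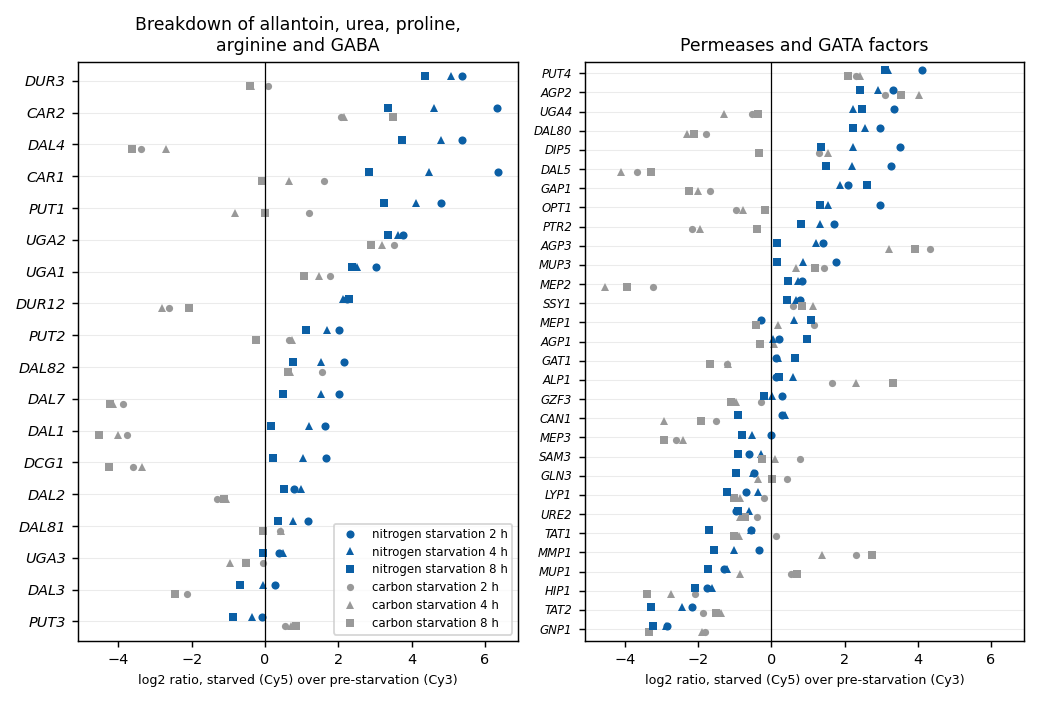
Log2 ratio of starved over pre-starvation signal (x axis) of genes for allantoin, urea, proline, arginine and GABA use (left) and of permease and GATA factor genes tested on all 6 arrays (right), with 1 point per array, blue for nitrogen and grey for carbon starvation, at 2 h (circle), 4 h (triangle) and 8 h (square). The blue points of DAL4, DUR3, DAL1, DAL7 and DCG1 lie to the right of 0 and the grey points of DAL4, DAL1, DAL7 and DCG1 to the left of it.

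Genes of self-digestion were mostly raised. Of 18 core autophagy genes, 13 were raised and none lowered, beside 31.1 and 19.1% of all genes. Their median was 2.04, and 12 of the 13 were raised without any 1 of the arrays. ATG8, whose product is built into the growing autophagosome membrane, stood at 4.71, 3.81 and 4.27 (mean 4.27 ± 0.27, adjusted p = 4.7e-05). ATG1, the kinase that starts autophagy, was at 3.50, 2.95 and 2.73 (mean 3.06 ± 0.26, adjusted p = 1.2e-04), and ATG31, ATG2 and ATG4 had means of 2.88 ± 0.26, 2.69 ± 0.26 and 2.51 ± 0.25. The 5 not called were ATG5, ATG10, ATG12, ATG18 and VPS30, with means of -0.15 to 0.55. Of the 18, 1 gene, ATG9, differed from late carbon starvation in the equal totals fit, by -0.96 ± 0.31 (adjusted p = 0.046), and not without any 1 of the 6 arrays. With median centring 5 of the 18 were lower than in late carbon starvation, beside 874 of all genes. Of 10 vacuolar protease and inhibitor genes 9 were raised: PRB1, protease B, stood at 4.12, 3.36 and 2.98 (mean 3.49 ± 0.29, adjusted p = 1.2e-04), APE1, aminopeptidase 1, at 4.12, 2.99 and 2.75 (mean 3.28 ± 0.32, adjusted p = 1.9e-04), and PEP4, protease A, at 2.33, 1.58 and 1.03 (mean 1.65 ± 0.30, adjusted p = 0.0031). The protease inhibitor genes PAI3 (4.13, 4.29 and 5.09) and PBI2 (4.26, 4.19 and 3.21) rose beside them. PRB1 and APE1 were higher than in late carbon starvation by 2.30 ± 0.40 and 3.49 ± 0.43 (adjusted p = 0.0024 and 3.4e-04), where APE1 was at 0.24, -0.15 and -0.70. CPS1, a carboxypeptidase, was not called at 0.46, -0.80 and -0.44, but was 3.18 ± 0.54 above late carbon starvation (adjusted p = 0.0022).

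Proteasome genes mostly did not pass the test with equal totals and all 3 arrays. Of 34 tested, 5 were raised and none lowered, beside 31.1% of all genes raised, and the median was 0.52. The count depended on the processing, with up to 18 of the 34 raised on another source, 23 without the 8 h array (of 2348 of all genes) and 1 without the 4 h array. RPN4, the transcription factor of the proteasome genes, stood apart at 2.69, 3.16 and 3.64 (mean 3.17 ± 0.27, adjusted p = 1.3e-04). The other raised members, SCL1, RPN8, PUP3 and PRE6, had means of 0.81 to 1.01, and none of these 4 was called without the 4 h array.

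Genes that build the ribosome fell almost without exception, where 19.1% of all genes were lowered. Of 135 cytosolic ribosomal protein genes tested 133 were lowered, with a median of -2.71, and of 133 ribosome assembly genes 132, with a median of -3.32. On all 6 sources of ratios the counts were 119 and 127, and over these sources the medians ran from -2.96 to -2.53 and from -3.57 to -2.41. RPL20A stood at -4.86, -3.84 and -3.56 (mean -4.09 ± 0.31, adjusted p = 9.7e-05), RPL9A at -4.35, -3.77 and -3.65 (mean -3.93 ± 0.26) and RPL38 at -4.49, -3.68 and -3.03 (mean -3.73 ± 0.32). The 2 ribosomal protein genes not called were RPL41A, at -1.88, -1.59 and 0.25, and RPL15B, at 0.83, 0.46 and 0.50, the only one with a positive mean. The ribosome assembly gene not called was SPB4, an RNA helicase, at -1.27, -0.58 and -0.20. All 7 RNA polymerase I subunit genes and all 10 RNA polymerase III subunit genes were lowered, with medians of -3.24 and -1.81. RPA135, the second largest subunit of polymerase I, stood at -5.03, -3.57 and -3.27 (mean -3.96 ± 0.36), and RPC82, of polymerase III, at -3.44, -2.23 and -2.42 (mean -2.70 ± 0.30).

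Falls of translation genes were smaller. Of 18 cytosolic aminoacyl-tRNA synthetase genes 17 were lowered (median -1.72), and of 36 translation factor genes 32 (median -1.68), beside 19.1% of all genes. CDC60, the leucyl-tRNA synthetase, was at -2.79, -2.72 and -2.79 (mean -2.77 ± 0.23, adjusted p = 1.2e-04), DED81, for asparagine, at -2.76, -2.28 and -2.90 (mean -2.64 ± 0.25), and the only member not called, GUS1, for glutamate, at 0.32, 0.07 and -0.17. All 17 falls held on all 6 sources. NIP1, a subunit of initiation factor eIF3, was at -3.34, -2.45 and -3.14 (mean -2.98 ± 0.27, adjusted p = 1.6e-04), and HYP2, the eIF5A gene, which was not called, at 0.35, 0.68 and 1.07. The synthetase genes were lowered less than in late carbon starvation, where their median was -3.39: 15 of 18 were higher in nitrogen starvation, against 16.5% of all genes, and 11 with median centring. FRS1, for phenylalanine, was 2.41 ± 0.40 above late carbon starvation (adjusted p = 0.0018). Of the ribosomal protein genes 7 were higher than in late carbon starvation, and 1 with median centring. Of 66 mitochondrial ribosomal protein genes 7 were raised and 3 lowered, or 10.6 and 4.55% beside 31.1 and 19.1% of all genes. Their median of 0.03 turned to -0.22 with median centring, when 27 were lowered, beside 1709 of all genes. Without the 8 h array 13 of them were raised, beside 2348 of all genes. Without the 4 h array 2 were raised, beside 958 of all genes.

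**Figure D3:**
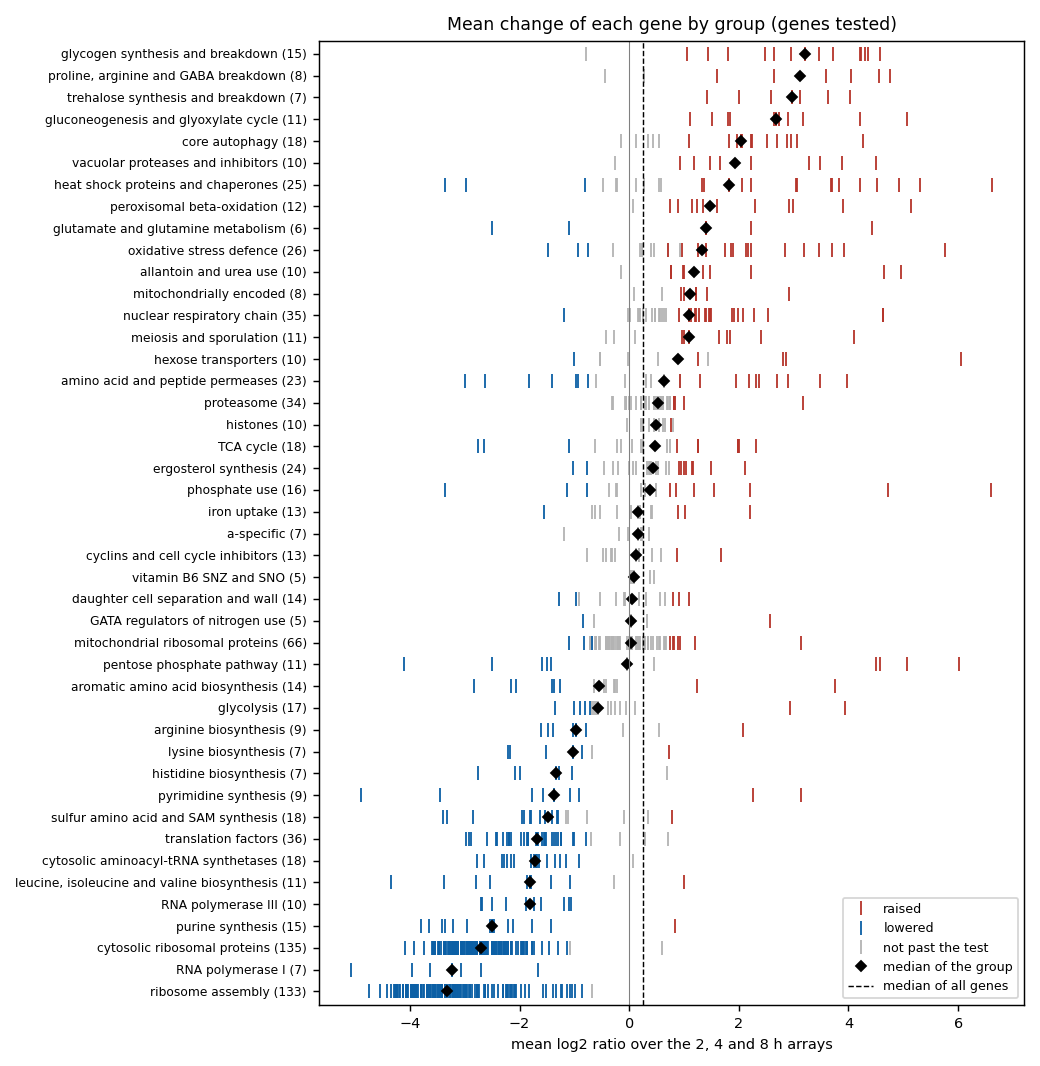
Mean log2 ratio over the 2, 4 and 8 h arrays (x axis) of every tested gene (tick) in each group of at least 5 tested genes, red for raised, blue for lowered and grey for not past the test, with the group's median (diamond) and the median of all genes, 0.25 (dashed line). Groups are ordered by their median, from 3.20 for glycogen synthesis and breakdown to -3.32 for ribosome assembly.

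Most amino acid synthesis genes were lowered, and each pathway had exceptions. For leucine, isoleucine and valine 9 of 11 genes fell, for histidine 6 of 7, for lysine 5 of 7, for arginine 6 of 9, for the aromatic amino acids 6 of 14, and for the sulfur amino acids 12 of 18, beside 19.1% of all genes. Without the 4 h array 3 lysine and 3 arginine genes were lowered, and with median centring 10 aromatic ones. ILV5, acetohydroxyacid reductoisomerase, was at -4.33, -3.02 and -2.78 (mean -3.38 ± 0.34, adjusted p = 2.2e-04), and BAT1, the mitochondrial branched-chain transaminase, at -3.0, -2.69 and -2.70 (mean -2.80 ± 0.24). BAT2, its cytosolic counterpart, was raised at 1.72, 0.96 and 0.30 (mean 0.99 ± 0.32, adjusted p = 0.032), but not without the 2 h or the 4 h array. HIS4 was at -2.39, -2.45 and -3.45 (mean -2.76 ± 0.29, adjusted p = 2.6e-04), LYS4 at -2.87, -2.32 and -1.43 and ARO4 at -3.56, -2.21 and -2.73. ARO9, the aromatic transaminase used for breakdown, was raised at 3.84, 3.53 and 3.90 (mean 3.76 ± 0.24, adjusted p = 4.8e-05), its pre-starvation signal being not well above background at all spots of any array. MET6, methionine synthase, was at -3.46, -3.15 and -3.58 (mean -3.40 ± 0.24, adjusted p = 7.1e-05) and SAM1, a SAM synthetase, at -2.99, -2.87 and -4.11 (mean -3.33 ± 0.31). MET3, ATP sulfurylase, stood at -0.84, -1.72 and -3.31, lower at each later time.

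Arginine synthesis held a further exception. ARG1, argininosuccinate synthetase, was raised at 3.35, 2.01 and 0.88 (mean 2.08 ± 0.43, adjusted p = 0.0055), while ARG3 (-2.11, -1.14 and -1.58), ARG8 (-1.04, -1.31 and -1.80), ARG2, ARG56 and ARG7 were lowered, with means of -1.61 to -0.79. ARG1 was lower on each later array. In late carbon starvation ARG1 stood at -3.72, -2.98 and -3.14, and the difference of 5.36 ± 0.55 (adjusted p = 1.1e-04) was among the 8 largest positive differences of genes bright in both channels. LEU4, the main isopropylmalate synthase, was lowered at -1.36, -0.88 and -1.01 (mean -1.08 ± 0.25, adjusted p = 0.0079) where late carbon starvation had a mean of 2.38, a difference of -3.47 ± 0.40 (adjusted p = 2.7e-04).

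Nucleotide synthesis genes were mostly lowered. Of 15 purine genes 14 were lowered (median -2.50), beside 19.1% of all genes, and all 14 without any 1 of the arrays. ADE17, of the last steps to IMP, was at -4.46, -3.27 and -3.67 (mean -3.80 ± 0.30, adjusted p = 1.0e-04), and GUA1, GMP synthase, at -4.80, -3.28 and -2.86 (mean -3.65 ± 0.38). The isoenzyme of ADE17, ADE16, was raised at 1.04, 0.90 and 0.56 (mean 0.83 ± 0.25, adjusted p = 0.024), but not without the 4 h array. The pyrimidine genes showed the same kind of pair: URA7 fell (above), whereas URA8, the second CTP synthase, was raised at 3.10, 2.05 and 1.63 (mean 2.26 ± 0.32, adjusted p = 9.3e-04), and URA5 fell (-1.50, -1.45 and -1.76, mean -1.57 ± 0.24) where URA10, the second orotate phosphoribosyltransferase, was raised at 2.71, 3.40 and 3.26 (mean 3.12 ± 0.26, adjusted p = 1.2e-04). Of 24 ergosterol genes 8 were raised and 2 lowered, beside 31.1 and 19.1% of all genes, with 14 raised on another source, 11 without the 8 h array and 2 without the 4 h array. ERG28, a scaffold of the sterol enzymes, was at 3.01, 2.18 and 1.14 (mean 2.11 ± 0.36, adjusted p = 0.0022) and ERG5 at 1.46, 1.67 and 1.32 (mean 1.48 ± 0.24, adjusted p = 0.0016). The group's median in late carbon starvation was -1.75. With equal totals 14 of the 24 were higher in nitrogen starvation, against 16.5% of all genes, and also 14 with median centring. ERG25 was at 0.62, 1.24 and 1.63 without nitrogen and at -2.99, -3.49 and -2.54 without glucose, a difference of 4.18 ± 0.38 (adjusted p = 5.4e-05).

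Storage carbohydrate genes were raised almost throughout. All 7 trehalose genes and 14 of 15 glycogen genes rose, beside 31.1% of all genes. Their medians were 2.97 and 3.20, and the rises held on all 6 sources. TPS2, trehalose phosphate phosphatase, stood at 4.17, 4.27 and 3.62 (mean 4.02 ± 0.26, adjusted p = 4.7e-05), TSL1, a regulatory subunit of trehalose synthase, at 3.84, 3.61 and 3.43 (mean 3.62 ± 0.24), and ATH1, the acid trehalase, at 3.42, 2.93 and 2.99 (mean 3.12 ± 0.25). Genes for making the sugar and for breaking it were thus raised together. In glycogen metabolism the branching enzyme GLC3 was at 5.12, 4.15 and 3.34 (mean 4.20 ± 0.35, adjusted p = 1.2e-04), the phosphorylase GPH1 at 5.06, 4.32 and 3.49 (mean 4.29 ± 0.33) and the phosphoglucomutase PGM2 at 5.04, 4.67 and 3.36 (mean 4.36 ± 0.35). Each of these 3 was highest at 2 h. PIG2, a phosphatase regulatory subunit, held nearly level at 4.75, 4.58 and 4.37 (mean 4.57 ± 0.24, adjusted p = 3.1e-05). The exception was PGM1, the minor phosphoglucomutase, not called at -0.30, -0.45 and -1.63 (adjusted p = 0.072). GPH1 was higher than in late carbon starvation by 1.74 ± 0.44 (adjusted p = 0.018), and the glycogen synthase gene GSY1 lower by 1.65 (adjusted p = 0.024), neither of them without the 4 h nitrogen array.

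Of 25 heat shock and chaperone genes 15 were raised and 3 lowered, or 60.0% raised beside 31.1% of all genes. HSP42, a small heat shock protein, stood at 5.46, 4.78 and 5.65 (mean 5.30 ± 0.27, adjusted p = 3.1e-05), HSP104, the disaggregase, at 4.58, 5.05 and 5.14 (mean 4.92 ± 0.25), and HSP78, its mitochondrial relative, at 4.47, 4.47 and 4.61 (mean 4.52 ± 0.24). All 3 were high on every array, HSP78 varying least. HSP30, a plasma membrane protein, was at 1.99, 4.64 and 5.99, a gain of 3.99 from 2 to 8 h, and SSA3, an inducible HSP70, at 0.54, 2.06 and 3.57, called on 4 and 1 of the 6 sources. The 3 lowered members were the ribosome-bound HSP70 genes SSB1 (-4.35, -2.57 and -3.13) and SSB2 (-4.02, -2.19 and -2.74), with means of -3.35 ± 0.36 and -2.98 ± 0.36, and SSA2 (-1.02, -0.56 and -0.83). The essential co-chaperone YDJ1 and mitochondrial SSC1 were not called, with means of -0.47 ± 0.29 and -0.24 ± 0.24. Of 26 oxidative defence genes 16 were raised and 3 lowered, or 61.5 and 11.5%, with 1 lowered without the 4 h or the 8 h array. TSA2, a stress-induced peroxiredoxin, was at 3.26, 3.86 and 3.97 (mean 3.70 ± 0.26, adjusted p = 6.7e-05), PRX1, the mitochondrial one, at 3.70, 3.58 and 3.11 (mean 3.46 ± 0.25), and GRX1, a glutaredoxin, at 3.82, 3.35 and 2.39 (mean 3.18 ± 0.32). SOD1 and SOD2, the superoxide dismutases, had means of 2.17 ± 0.30 and 1.86 ± 0.26. GRX3, TRR1 and GPX2 were lowered, with means of -1.48 to -0.75.

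In central carbon metabolism, all 11 gluconeogenesis and glyoxylate genes were raised, by a median of 2.68 and beside 31.1% of all genes, and 5 of them on all 6 sources. MLS1, malate synthase, stood at 4.88, 4.53 and 5.79 (mean 5.07 ± 0.30, adjusted p = 3.9e-05), MDH2, cytosolic malate dehydrogenase, at 4.44, 3.80 and 4.40 (mean 4.22 ± 0.26, adjusted p = 4.3e-05), and FBP1, fructose bisphosphatase, at 1.31, 2.36 and 4.37 (mean 2.68 ± 0.52, adjusted p = 0.0038). FBP1 was higher on each later array, and its rise was called on 3 of the 6 sources. In late carbon starvation the same 11 had a median of 6.11, and 10 of the 11 were lower in nitrogen starvation, against 5.98% of all genes. PCK1, PEP carboxykinase, was at 2.67, 2.45 and 3.08 and in late carbon starvation at 5.67, 7.02 and 5.35, and since no spot of it was well above background in the pre-starvation channel of the late nitrogen arrays, its rise there is given as at least 5.83-fold (adjusted p = 1.6e-04). The difference between the starvations is not given for it. ICL1, isocitrate lyase, was at 1.01, 0.90 and 1.39 against 6.57, 6.86 and 4.88 (difference -5.0 ± 0.49, adjusted p = 8.7e-05). Of 12 beta-oxidation genes 11 were raised (median 1.47), or 91.7% beside 31.1% of all genes, with 8 on all 6 sources and 6 without the 4 h array, and 10 lower than in late carbon starvation. POT1, the peroxisomal thiolase, was at 3.86, 5.18 and 6.37 (mean 5.14 ± 0.44, adjusted p = 1.2e-04), and FOX2, the multifunctional enzyme, at 1.33, 1.60 and 1.85 against 5.98, 6.68 and 6.28 without glucose.

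**Figure D4:**
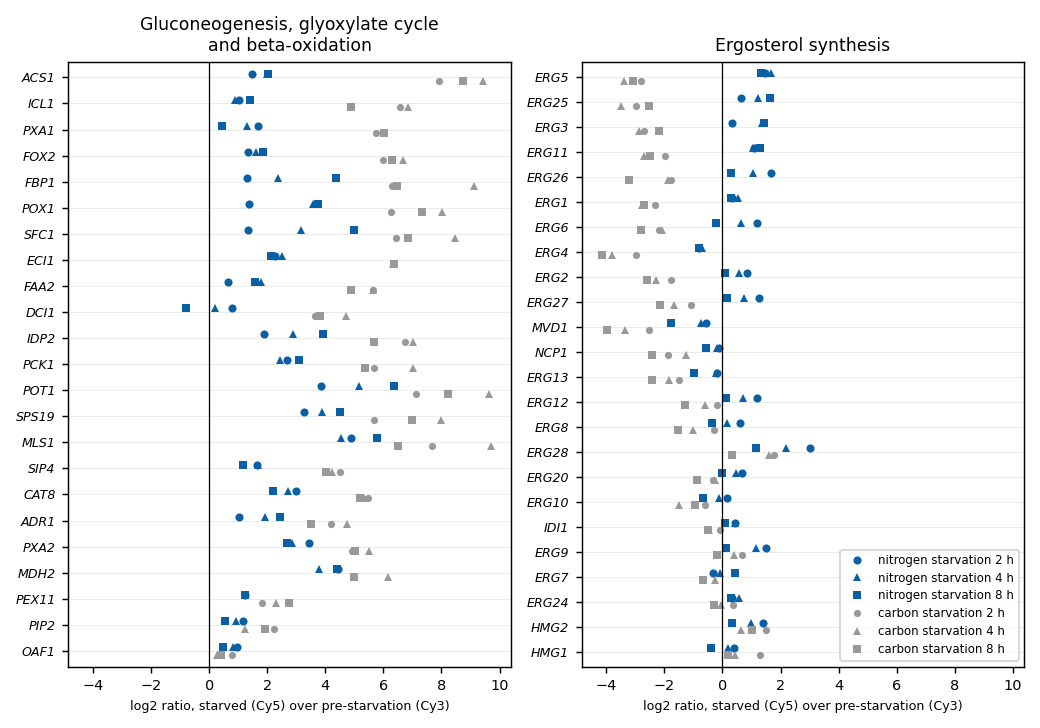
Log2 ratio of starved over pre-starvation signal (x axis) of gluconeogenesis, glyoxylate cycle and beta-oxidation genes (left) and of ergosterol synthesis genes (right), ordered by the difference between the starvations, with 1 point per array, blue for nitrogen and grey for carbon starvation, at 2 h (circle), 4 h (triangle) and 8 h (square). The 3 blue points of ACS1 (1.49, 1.98 and 2.02) lie far below its grey ones (7.92, 9.42 and 8.75), and those of ERG5 lie on the other side of 0.

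Within glycolysis, 2 of 17 genes were raised and 5 lowered, beside 31.1 and 19.1% of all genes, with 1 lowered without the 2 h or the 4 h array, 7 without the 8 h array and 10 on another source. The kinase genes HXK1 (4.38, 4.51 and 2.91, mean 3.93 ± 0.35, adjusted p = 1.5e-04) and GLK1 (3.64, 3.20 and 1.94, mean 2.93 ± 0.35) rose, while HXK2, the main hexokinase on glucose, was not called at 0.01, 0.07 and -1.05. HXK2 was 4.15 ± 0.43 above late carbon starvation, where it stood at -4.16, -5.16 and -4.10 (adjusted p = 1.1e-04). ENO2, CDC19, GPM1, TDH3 and PGI1 were lowered, with means of -1.36 to -0.71, but of these only ENO2 held on all 6 sources. Among hexose transporters HXT1, of low affinity, was lowered at -0.51, -0.86 and -1.64 (mean -1.01 ± 0.29, adjusted p = 0.022), though not without the 4 h or the 8 h array, and the high affinity pair HXT6 and HXT7 rose, with HXT7 at 2.59, 3.71 and 2.29 (mean 2.86 ± 0.32). HXT3, also of low affinity, was not called at -0.59, -0.07 and -0.91, and lay 4.67 ± 0.36 above late carbon starvation (-4.87, -5.63 and -5.08, adjusted p = 1.9e-05). In the pentose phosphate pathway 4 of 11 genes were raised and 5 lowered, on all 6 sources and without any 1 array, and in several cases the isoenzymes differed. TKL1, the main transketolase, and GND1, the main 6-phosphogluconate dehydrogenase, were lowered at -2.73, -2.40 and -2.37 and -2.13, -1.28 and -1.37, whereas their second forms TKL2 and GND2 were raised at 3.10, 5.06 and 5.33 and 3.55, 4.77 and 5.43. NQM1, the second transaldolase, was raised at 3.84, 5.41 and 5.95 (mean 5.06 ± 0.40) and TAL1, the main one, lowered at -1.57, -1.24 and -1.70 (mean -1.50 ± 0.24). SOL4 and SOL3, both 6-phosphogluconolactonases, had means of 6.02 ± 0.30 and -1.44 ± 0.24. RKI1, ribose-5-phosphate isomerase, which has no second form, fell most, to -5.10, -3.68 and -3.53 (mean -4.10 ± 0.35, adjusted p = 1.2e-04).

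In mitochondria, 19 of 35 nuclear respiratory chain genes were raised and 1 lowered (median 1.09), or 54.3% raised beside 31.1% of all genes, with 12 raised without the 4 h array and up to 25 on another source. CYC7, the isoform 2 of cytochrome c, was at 5.76, 3.95 and 4.20 (mean 4.64 ± 0.37, adjusted p = 1.1e-04), whereas CYC1, the isoform 1, was lowered at -1.68, -0.94 and -0.94 (mean -1.19 ± 0.27, adjusted p = 0.0075). COX5B was at 3.0, 2.42 and 2.16 (mean 2.53 ± 0.27), and NDE2, an external NADH dehydrogenase, at 4.44, 4.38 and 5.06 (mean 4.63 ± 0.26). Of 18 TCA cycle genes 7 were raised and 3 lowered, shares of 38.9 and 16.7% that lie near those of all genes, and 4 were raised without the 4 h array. SDH4, of succinate dehydrogenase, was at 2.50, 2.49 and 1.92 (mean 2.31 ± 0.25, adjusted p = 3.0e-04), and CIT2, the peroxisomal citrate synthase, was lowered at -2.72, -2.32 and -2.93 (mean -2.66 ± 0.25, adjusted p = 1.8e-04), where late carbon starvation had it at 5.66, 4.31 and 2.95. Of the 8 mitochondrially encoded genes 6 were raised with equal totals, or 75% beside 31.1% of all genes. On all 6 sources 2 were raised, namely OLI1 (2.35, 2.78 and 3.63) and COB (1.48, 1.20 and 0.32). With normexp correction and equal totals, the means of COX2 and VAR1 turned to -0.22 and -0.37 (adjusted p = 0.38 and 0.17). No spot of COX2 was well above background in the pre-starvation channel. The methods of the study state that poly(A)+ RNA was purified before labelling, and how this bears on mitochondrial transcripts was not tested.

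Of 13 cell cycle genes tested 2 were raised and none lowered, beside 31.1 and 19.1% of all genes, while 5 were lowered with median centring and 4 raised without the 8 h array. The 2 were RIM15, a kinase needed to enter quiescence, at 1.84, 1.62 and 1.58 (mean 1.68 ± 0.24, adjusted p = 8.7e-04), and SIC1, the inhibitor of B-type cyclin kinase, at 1.31, 0.80 and 0.49 (mean 0.87 ± 0.26, adjusted p = 0.028), the latter not without the 2 h or the 4 h array. CLN1 was at 0.47, 0.90 and -0.14, CLN2 at -0.30, 0.07 and -1.19 and CLB2 at 0.88, -0.06 and -1.80. CLB2 and CLB1, mitotic cyclins, were above 0 at 2 h and below it at 8 h, CLB1 being at 1.42, 0.89 and -0.58. In late carbon starvation the 13 genes had a median of -2.03. With equal totals 9 of them were higher in nitrogen starvation, against 16.5% of all genes, and also 9 with median centring. CLN1, a G1 cyclin, differed by 3.03 ± 0.36 (adjusted p = 2.9e-04). Of 10 histone genes 1, HHT1, was raised (1.12, 0.79 and 0.38), and not without the 2 h or the 4 h array, but 5 on another source and 6 without the 8 h array, and 7 were higher than in late carbon starvation. Of 14 genes of daughter cell separation and wall 3 were raised and 2 lowered, or 21.4 and 14.3%, and 0 and 1 without the 4 h array, with DSE4, a glucanase of daughter cells, at 1.77, 0.90 and 0.62 and SUN4, a wall protein of septation, at -0.50, -1.14 and -2.20. Of 11 meiosis and sporulation genes tested 8 were raised, or 72.7% beside 31.1% of all genes, but 4 without the 4 h array. On all 6 sources 2 were raised, NDT80 (1.56, 1.63 and 2.16) and SPS100. No spot of SPS100 was well above background in the pre-starvation channel, so its rise is given as at least 11.7-fold. The pre-starvation channel was as dim for 12 of the 17 members on the array. Such a gene entered the test only where its starved signal was bright, so the share raised is partly fixed by this filter. With normexp and equal totals the median of the tested members was -0.36. Of the 17, 6 were well above background on too few arrays for a test, IME1, the initiator of meiosis, among them. 

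As a check of the labelled MATa strain, all 7 a-specific genes (STE2, STE6, MFA1, MFA2, BAR1, AGA2, ASG7) were well above background in the pre-starvation channel of all 3 arrays. The alpha-factor genes MF(ALPHA)1 and MF(ALPHA)2 were not well above background at all of their spots in either channel of any array. Each still had a starved-channel spot well above background on some array. STE3 and SAG1 gave signal, with ratios of 1.10, 1.23 and 0.32 and 1.38, 0.91 and 0.33. No a-specific gene was called. STE2, the alpha-factor receptor, was at -0.18, -0.69 and -2.72, and was called lowered in 7 of the alternative settings. MFA1, an a-factor gene, was at 1.11, 0.34 and -1.0. BAR1, the secreted protease, was at 1.16, 0.32 and -1.55, and its mean of -0.02 turned to 0.74 without the 8 h array (adjusted p = 0.038).

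Among other nutrients, 7 of 16 phosphate genes were raised and 3 lowered, or 43.8 and 18.8% beside 31.1 and 19.1% of all genes, with 4 and 1 without the 4 h array. PHO84, the phosphate permease, was lowered at -3.23, -2.92 and -3.91 (mean -3.35 ± 0.28, adjusted p = 1.2e-04), and PHM8, a phosphatase, was raised at 4.37, 4.68 and 5.13 (mean 4.73 ± 0.26, adjusted p = 3.1e-05). PHO89, the sodium-dependent permease, was at -0.68, -1.08 and -1.66 against 3.61, 3.80 and 4.15 without glucose (difference -4.99 ± 0.36, adjusted p = 1.3e-05). Of 13 iron genes 3 were raised (1 without the 4 h array) and 1, FET3, the multicopper oxidase, lowered at -0.67, -1.15 and -2.87, or 23.1 and 7.69%. TIS11, which degrades transcripts of iron-using proteins, was at 2.62, 2.06 and 1.95 (mean 2.21 ± 0.26, adjusted p = 3.7e-04). No SNZ or SNO gene of vitamin B6 synthesis was called, and SNZ1 was at -0.90, 0.01 and 1.13.

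For 135 genes no spot was well above background in the pre-starvation channel of any of the 3 arrays while the starved signal was on all of them, so that the ratio is only a lower bound. The bound sets the mean starved signal against the higher of the gene's own pre-starvation signal and the lowest signal counted as well above background, as means of log2 values normalized between arrays (Aquantile). Only genes whose bound came out above 1-fold are counted, in either direction. The largest were SPG4, a gene of stationary phase survival, which was at least 24.5-fold higher, PEX18, a peroxisomal import factor, at least 23.6-fold, and GID10, which marks proteins for degradation, at least 20.7-fold. EGO4 and YKL107W were at least 20.3-fold and 19.5-fold higher. All 5 were called in the fit, with adjusted p of 3.3e-05 to 1.1e-04. In the other direction only 1 gene qualified, PHO3, an acid phosphatase repressed by thiamine, which was at least 7.53-fold lower (adjusted p = 1.2e-04). No differences from late carbon starvation are given for these 5, whose ratios are bounds.

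Across all genes, 916 of 5548 (16.5%) were higher late in nitrogen than late in carbon starvation and 332 (5.98%) lower, in a limma fit of the 6 late arrays. Both sets are ratios to RNA labelled pre-starvation, and whether it was 1 extract is not given in the sources used here. The higher genes made up 73.4% of these calls with equal totals, but 48.9% with median centring and 44.0% with normexp and loess. On all 6 sources 545 genes were higher and 280 lower. With median centring 837 were higher and 874 lower. Of the 916, 185 were raised late in nitrogen starvation, 181 lowered and 550 not called. Of the 332, 243 were raised, 20 lowered and 69 not called. The 8 largest positive differences with both channels bright on all 6 arrays included DAL4, DAL5, DAL7, ARG1 and DUR3 (above). The other 3 were MIG2, a repressor acting in glucose, at 1.49, 0.76 and 0.42 against -4.01, -4.28 and -4.18 (difference 5.05 ± 0.36, adjusted p = 1.3e-05), PCL1, a cyclin of the Pho85 kinase, at 1.41, 1.88 and 1.47 against -3.82, -3.15 and -3.35 (difference 5.03 ± 0.33), and NRK1, a nicotinamide riboside kinase, at 2.81, 1.73 and 0.56 against -3.11, -3.13 and -3.69 (difference 5.01 ± 0.51). Their nitrogen and carbon values did not overlap, which the choice of the largest called differences all but ensures. The rise of MIG2 in nitrogen starvation itself (mean 0.89 ± 0.28, adjusted p = 0.033) was lost without the 2 h or the 4 h array.

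The 8 largest negative differences were those of PDH1, YIG1, ADH2, CIT2, CTA1, ACS1, ATO3 and YAT1. ADH2, the alcohol dehydrogenase that oxidizes ethanol, was at 0.28, 0.83 and 0.53 without nitrogen and 5.52, 9.23 and 8.17 without glucose (difference -7.09 ± 0.75, adjusted p = 1.3e-04). ACS1, an acetyl-CoA synthetase, was at 1.49, 1.98 and 2.02 against 7.92, 9.42 and 8.75 (difference -6.87 ± 0.41), and CTA1, the peroxisomal catalase, at 0.05, 0.57 and 2.15 against 6.71, 8.94 and 7.95 (difference -6.94 ± 0.63). PDH1, of propionate use, was lowered without nitrogen (-1.88, -1.61 and -2.13, mean -1.87 ± 0.25, adjusted p = 6.3e-04) and high without glucose (6.01, 6.21 and 4.93), and CIT2 likewise, with differences of -7.58 ± 0.39 and -6.97 ± 0.57. YIG1, ATO3, an ammonium exporter, and YAT1, a carnitine acetyltransferase, had means of -1.65 ± 0.26, -2.82 ± 0.31 and 0.50 ± 0.24 in nitrogen and 5.86, 3.08 and 6.25 in carbon starvation.

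From 2 to 8 h ribosomal genes came closer to their pre-starvation level and gluconeogenesis genes moved away from it, as medians. The test for a trend on log2 time over 3 arrays rests on 1 residual degree of freedom before moderation. It called 375 genes rising (6.59%) and 1700 falling (29.9%), but 466 rising and 73 falling with median centring. The median of all genes itself moved from 0.60 to -0.15. Only 292 rising and 53 falling trends held on all 6 sources. Ribosome assembly genes had medians of -4.62, -2.81 and -2.61 at 2, 4 and 8 h, and ribosomal protein genes -3.51, -2.65 and -1.89. Both stayed below 0 throughout. The median 2 to 8 h change of the centred ratios was 2.65 and 2.43, beside 0.14 for all genes. The aminoacyl-tRNA synthetase genes, at medians of -1.66, -1.56 and -2.02, did not come back with equal totals. Sulfur amino acid genes went lower, with medians of -0.83, -1.37 and -2.20. Gluconeogenesis and glyoxylate genes went up as group medians, at 1.65, 2.45 and 3.08. Their median 2 to 8 h change per gene was smaller, at 0.53, or 1.29 for the centred ratios.

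**Figure D5:**
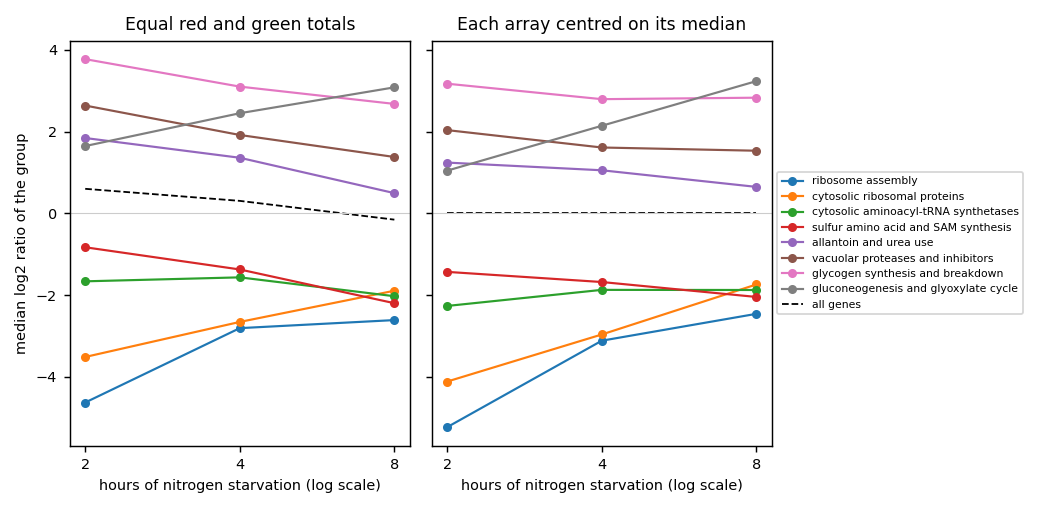
Median log2 ratio (y axis) of 8 gene groups and of all genes (dashed) at 2, 4 and 8 h of nitrogen starvation (x axis, log scale), with equal red and green totals (left) and after median centring (right). Ribosome assembly and ribosomal protein genes come closer to 0 at 8 h and gluconeogenesis genes move away from it in both panels.

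Single genes moved further than these medians. Among genes with both channels bright on all 3 arrays, the largest increases from 2 to 8 h were in YRO2, a membrane protein of the stress response, at 1.43, 4.81 and 5.12 (by 3.69), YDL218W at 1.40, 2.38 and 4.87 (by 3.47), and the ribosome assembly genes CGR1, RPF1 and RRS1. CGR1 went from -4.39 to -0.99 (by 3.40), RPF1 by 3.27 and RRS1 by 3.21, and all 3 were still lowered on average. The largest decreases after CAR1 were in YAR075W (-1.14, -2.41 and -4.61), which belongs to the IMD1 pseudogene and can share signal with IMD2, and YLR112W (1.37, -0.44 and -1.88), YJL213W (1.64, -0.15 and -1.43) and SPS4 (1.02, -0.30 and -1.99), by 3.47, 3.24, 3.07 and 3.01. The last 3 crossed from above 0 at 2 h to below 0 at 8 h, and their mean changes were not called. These 10 changes kept their sign with median centring, at 4.45 for YRO2 and -2.77 for CAR1.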

How the data were processed

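FY4 filter cultures were profiled on Agilent yeast arrays with Cy5 for starved and Cy3 for pre-starvation RNA. The authors' Feature Extraction software (version A.7.5.1 per the file headers) gave the deposited processed intensity of each channel, background-corrected, spatially detrended and LOWESS dye-normalized. The authors also deposited a series table of log2 ratios, used as an alternative. Both channels were scaled here to equal totals over 10263 non-control spots. Outlier spots and spots bright in neither channel were dropped, and the remaining spots were averaged by systematic name. Genes with a value on all 3 late arrays entered limma's lmFit and eBayes (version 3.58.1, under R 4.3.3, checked on simulated data, with Benjamini-Hochberg adjustment) for a mean different from 0, for a trend on log2 time, and, over 6 late arrays, for nitrogen minus carbon. The 6 late arrays lay on 6 slides, so no slide block could be fitted. The alternatives were the other 5 sources of ratios, no filter or a stricter one on dim spots, a trended robust variance, a shared fit, a minimum change of 1, the time point as a block, and leaving out each array. The log2 values have no known counting depth, and the number of arrays limits the precision. Of the 6256 systematic names 5756 matched the RefSeq gene table.

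The gene lists and tests were chosen with earlier results of these data known. Genes were named by rule: the 12 largest rises and falls, up to 4 called members of each list (every member of lists of up to 10), the 5 largest bounds and 2 to 8 h moves in each direction, and the 8 largest differences from carbon starvation in each direction. Outside the rule, 67 list members were named after their values were seen: ADE16, AGP2, ARO9, ATG1, ATG10, ATG12, ATG18, ATG5, ATG9, BAP2, BAP3, BAT2, CLB1, CLB2, CLN1, CLN2, CYC1, CYC7, DIP5, FBP1, FRS1, GAP1, GND1, GPM1, GPX2, GRX3, GSY1, GUS1, HIP1, HSP30, HXK2, HXT1, HXT3, HYP2, ICL1, IME1, LEU4, MLS1, MUP1, NDE2, OPT1, OPT2, PCK1, PGI1, PGM1, PHM8, PHO89, POT1, PRE6, RPL15B, RPL41A, SOD1, SOD2, SOL3, SPB4, SSA2, SSA3, SSB1, SSB2, SSC1, TAL1, TDH3, TKL1, TKL2, TRR1, VPS30 and YDJ1. A search of promoter motifs was not made, since no sequences were used here. The values of 1 list member are not reported here.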

Additional observations from a re-analysis of the deposited data

Results flagged for a closer look

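Of the 340 genes named in the text and tested on all 6 late arrays, 141 differed between late nitrogen and late carbon starvation by limma's test of the difference itself. Those among the largest changes, the largest 2 to 8 h moves and the largest differences are given here, each as late nitrogen minus late carbon on the log2 scale.

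Higher in nitrogen starvation were DAL4 (7.87), DAL5 (6.01), DAL7 (5.43), ARG1 (5.36), DUR3 (5.18), MIG2 (5.05), PCL1 (5.03), NRK1 (5.01), CAR1 (3.83) and SPS4 (2.93). Of these 10, SPS4 was not called in nitrogen starvation itself, and the calls of DAL7 and MIG2 there were lost without the 4 h array. Lower in nitrogen starvation were PDH1 (-7.58), YIG1 (-7.51), ADH2 (-7.09), CIT2 (-6.97), CTA1 (-6.94), ACS1 (-6.87), ATO3 (-5.90) and YAT1 (-5.75). Among the 12 largest rises of nitrogen starvation, HXT5 (-1.65), TMA10 (-2.45) and YBR116C (-2.51) rose less than without glucose. These differences lost their call in 8, 3 and 9 of the alternative settings. No group had 4 or more arrays, so no single array was tested as standing apart from its group.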

How the results depend on the processing

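Of the mean changes of all named genes over these settings, 3943 kept their sign and their side of the threshold, 182 lost the call and 76 gained it. The sign changed in 75, of which 6 were called with or without the change of setting and 69 in neither. With normexp and equal totals, STE3 turned to -0.088, SPR3 to -0.37, COX2 to -0.22 and VAR1 to -0.37, none of them called there. YJL213W, not called with all 3 arrays, ran from -0.79 without the 2 h array, where it was called, to 0.75 without the 8 h array, and BAR1 from -0.62 without the 2 h array to 0.74 without the 8 h array, where it was called. Among the differences from late carbon starvation 253 lost the call and 213 gained it, and 273 changed sign, none of them called in either setting.

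Lowered genes numbered 1709 with median centring and 1646 with normexp and loess. Genes lower than in carbon starvation numbered 835 with no further scaling, 874 with median centring, 562 and 778 with normexp (equal totals and loess) and 828 in the deposited table. With the time point as a block, which pairs the starvations by hour and not by replicate, 1377 were higher and 548 lower. Trend calls moved most: 429 with no further scaling (94 falling), 539 with median centring (73 falling), 1016 rising and 490 falling with normexp and equal totals, 1301 with normexp and loess (1137 rising, 164 falling), 426 in the deposited table (94 falling), 2622 falling with a trended robust variance in limma, and 249 for a change of at least 1 per doubling of time (139 rising, 110 falling). With no filter on dim spots limma gave 0 trends, 0 rising and 0 falling, at a smallest adjusted p of 0.0543, although 2950 passed an unadjusted p under 0.05, against 3075 with the filter.

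Leaving out 1 array at a time gave 958 to 2348 raised and 778 to 1340 lowered genes, and 489 to 1242 higher and 160 to 356 lower than in carbon starvation. The lowest counts came without a 4 h array: 958 raised, 489 higher and 181 lower without that of nitrogen, and 516 higher and 160 lower without that of carbon. Only 2 arrays of that group then remained, and the cause was not tested further. No paired analysis by replicate was possible because the labels give the arrays no replicate numbers. For the 135 genes counted above, with a dim pre-starvation channel and a bound above 1-fold, the array gives only a lower bound.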
